A study of Mus musculus with 6 samples.

Results

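The corticosteroid receptors and a panel of glucocorticoid-regulated genes were followed in the pituitary gland of male mice. The set holds 10 genes, chosen by name: the receptor genes NR3C1 and NR3C2 and the target genes FKBP5, TSC22D3, SGK1, ZBTB16, MT2A, GLUL, CDKN1A and NFKBIA. All 10 were found among the 16736 rows of the deposited count table, and all 10 passed the filter on low counts that left 13873 rows for testing. Bulk RNA-seq libraries came from mice labelled RD (3 libraries) and mice labelled HFD (3 libraries), and the mice of both groups had fasted for 16 h and then fed for 4 h. The labels name sex, tissue and diet code. Strain, age, composition and length of the diets, and whether each library is a different animal are not stated, so a p-value here measures library-to-library spread that may be technical. The series title sets the comparison in obesity and the unfolded protein response of the gland.

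NR3C1 encodes the glucocorticoid receptor and NR3C2 the mineralocorticoid receptor, ligand-activated transcription factors that rest in a complex with HSP90 and its co-chaperones and move to the nucleus when corticosterone binds. In the pituitary, glucocorticoids close the feedback loop of the stress axis: they act on corticotrophs to restrain the transcription of POMC, the precursor of corticotropin. Glucocorticoid receptor also switches on a widely shared set of genes in many cell types, among them FKBP5, which in turn lowers the receptor's affinity for its ligand.

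The start sites of the set were read from RefSeq (GRCm38.p6), which gave 15 windows, from 250 bases before to 50 bases after an annotated start, for 7 of the 10 genes. Both strands were searched for the palindromic glucocorticoid response element, which is AGAACA and TGTTCT with any 3 bases between them, for its 6-base arm AGAACA alone, which overlaps it, and for the kappaB motif bound by the NF-kappaB factors, which is GGGA and TTCC with any 2 bases between them. The full element stood in 1 window of the set, at 1 of the 6 annotated starts of SGK1, and in 3 of all 32851 windows (0.00913%). The 6-base arm stood in 4 windows of the set, 3 of SGK1 and 1 of TSC22D3, against 19.0% of all windows. The kappaB motif stood in the window of NFKBIA and in 1.47% of all windows. A match describes letters in these windows and is not evidence of binding. The SGK1 window (chr10:21993640-21993939, plus strand) is shown because SGK1 was the gene of the set called higher in HFD, with the full element in capitals at 21993701 to 21993715, between 189 and 175 bases before the start. The NFKBIA window (chr12:55492598-55492897, minus strand) has the kappaB motif in capitals, at 55492667 to 55492676. The FKBP5 window (chr17:28486100-28486399, minus strand) held none of the 3 motifs and is shown beside them for contrast; known response elements of FKBP5 lie in its introns, outside this window.
SGK1: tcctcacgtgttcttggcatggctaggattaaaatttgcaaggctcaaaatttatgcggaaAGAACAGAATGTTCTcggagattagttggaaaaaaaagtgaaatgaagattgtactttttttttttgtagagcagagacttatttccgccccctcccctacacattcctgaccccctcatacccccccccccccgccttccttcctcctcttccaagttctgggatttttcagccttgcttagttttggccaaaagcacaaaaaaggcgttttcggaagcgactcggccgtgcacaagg
NFKBIA: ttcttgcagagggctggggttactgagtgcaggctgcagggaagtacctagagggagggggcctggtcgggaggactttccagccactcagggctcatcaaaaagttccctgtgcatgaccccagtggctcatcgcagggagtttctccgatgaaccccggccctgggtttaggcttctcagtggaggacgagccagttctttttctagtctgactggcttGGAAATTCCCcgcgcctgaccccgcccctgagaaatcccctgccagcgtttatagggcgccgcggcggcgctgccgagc
FKBP5: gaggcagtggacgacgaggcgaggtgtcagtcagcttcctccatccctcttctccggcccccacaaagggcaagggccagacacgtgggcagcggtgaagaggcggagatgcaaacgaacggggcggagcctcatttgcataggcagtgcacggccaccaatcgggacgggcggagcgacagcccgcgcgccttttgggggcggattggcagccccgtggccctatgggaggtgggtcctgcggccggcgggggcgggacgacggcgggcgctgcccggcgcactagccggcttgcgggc

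Totals over the listed rows ran from 14185372 to 18111345 counts per library. Levels are given as CPM, the count scaled to library size with TMM factors, errors as SD with n = 3 per group, and changes as log2(HFD/RD) with SE. A gene is referred to as called where edgeR's quasi-likelihood test gave a Benjamini-Hochberg adjusted p under 0.05 over all tested rows. On the first principal component, with 48.3% of the variance, RD replicate 3 lay farthest out (-36.2, against -18.5 and -9.68 for the other RD libraries). For the 10 genes, log2 changes that moved by over 1.5 times or changed their call without it are therefore given both ways. POMC, PCSK2 and PAX7, markers of corticotrophs or melanotrophs, differed widely inside the groups: POMC stood at 9447, 5526 and 5537 CPM in RD replicates 1, 2 and 3 and at 5792, 13677 and 11155 CPM in the HFD replicates. The summed level of 7 corticotroph and melanotroph markers ran from 5931 to 10043 CPM in RD and 6157 to 14353 CPM in HFD. That sum does not separate corticotrophs, the cells in which feedback acts, from melanotrophs. The defining markers of the anterior gland were abundant: the somatotroph sum ran from 60979 to 74330 CPM in RD and from 38223 to 41467 CPM in HFD, and 3 of 5 markers were called lower. Lactotroph and gonadotroph sums were also lower in every HFD library than in every RD library, but their markers did not move one way: of 4 lactotroph markers PRL was called lower and ANGPT1 and NRG1 higher, and of 5 gonadotroph markers GNRHR, FSHB and LHB were called lower and FOXP2 and NR5A1 higher. The thyrotroph sum was higher (4 of 5 markers called), from 2036 to 2298 CPM in RD and 2752 to 3084 CPM in HFD. Most of it was CGA, at 1741 to 1953 CPM in RD and 2223 to 2514 CPM in HFD. CGA encodes a subunit that gonadotrophs share and was left out of the gonadotroph sum, so the lower gonadotroph sum holds for its 5 listed markers only. The pericyte and fibroblast sum was lower in HFD (553.9 to 650.2 CPM, against 688.9 to 749.5 CPM in RD), with COL1A2 called lower and 6 of 7 markers not called. The lymphoid sum, from 2 tested markers at a low level, was higher (3.74 to 4.37 CPM in HFD, against 1.43 to 2.94 CPM in RD). Endothelial, myeloid, folliculostellate, pituicyte and erythroid sums overlapped. The marker calls are to be read beside the 5.87% of all tested genes called higher and the 4.61% called lower. In whole glands, fewer cells of a type and less RNA per cell cannot be told apart, and the part of cell composition in the values below was not tested.

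Of the 10 genes, SGK1 rose and ZBTB16 fell in HFD pituitaries, and the other 8 were not called. That is 1 gene in each direction, where 5.87% of all tested genes were called higher and 4.61% lower, so the set held calls at about the background share. SGK1 and ZBTB16 were also the 2 genes of 10 whose groups did not overlap, which was true of 32.5% of all tested genes. In either direction 10.5% of all tested genes were called, 12.2% by DESeq2, 10.1% by limma-voom and 11.1% with library size only. The share was 10.9%, 6.35% and 10.1% when RD replicate 1, 2 or 3 was left out and 4.99%, 3.5% and 3.08% when HFD replicate 1, 2 or 3 was, and the calls named below for these fits are to be read beside it. The median log2 change of the set was -0.05, and that of all tested genes was -0.0023. Over all tested genes, 56.0% of the calls were higher in HFD, and 72.5% were with library size as the only scaling.

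**Figure D1:**
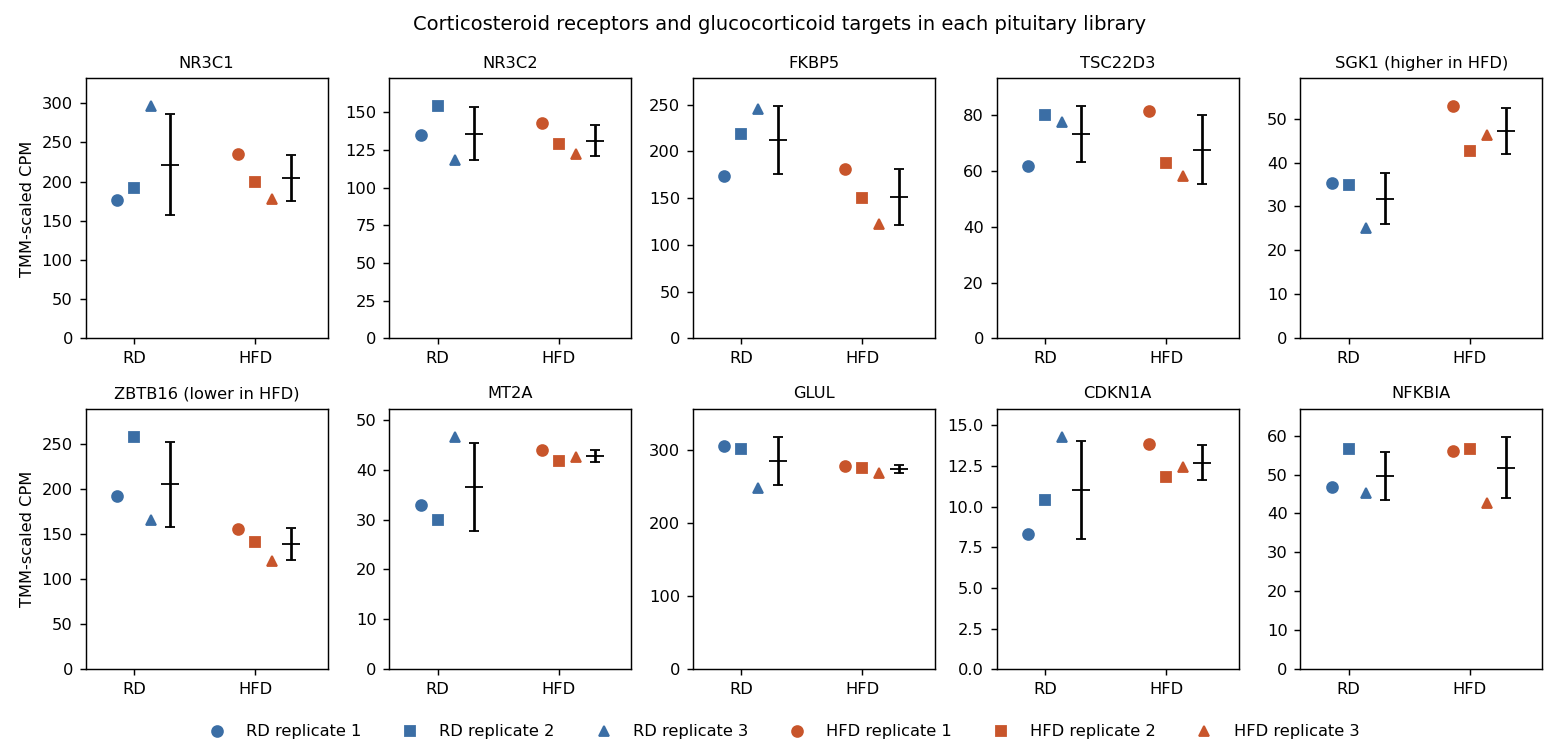
Each panel shows 1 gene in TMM-scaled CPM on an axis that starts at 0, with a symbol for each library (RD blue, HFD orange) and the mean with SD beside it. SGK1 is higher in all 3 HFD libraries (42.5 to 52.8 CPM) than in any RD library (25.1 to 35.3 CPM), ZBTB16 is lower, and the other 8 genes overlap.

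NR3C1 (chromosome 18 of mm10, 39410545 to 39519421, minus strand) stood at 177, 192 and 296 CPM in RD replicates 1, 2 and 3 and at 235, 199 and 178 CPM in HFD replicates 1, 2 and 3. The groups overlapped, and RD replicate 3 was the highest of all libraries. The log2 change was -0.12 ± 0.18, with a 95% interval from -0.51 to 0.28 (edgeR adjusted p = 0.719). Without RD replicate 3 the sign turned to 0.14, still not called (adjusted p = 0.431).

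NR3C2 (chromosome 8, 76899442 to 77245012, plus strand) stood at 135, 154 and 119 CPM in RD and at 143, 129 and 122 CPM in HFD. These groups overlapped as well, and the 95% interval of the log2 change ran from -0.27 to 0.17 (-0.05 ± 0.10, edgeR adjusted p = 0.795). It was -0.15 without RD replicate 3 (0.317). Divided by exon length within each library, a ratio that scaling does not touch, NR3C1 transcripts were 1.10, 1.05 and 2.10 times as abundant as NR3C2 transcripts in the RD libraries. In the HFD libraries the ratio was 1.39, 1.30 and 1.23. HFD replicates lay between RD replicate 3 and the other RD libraries, and glucocorticoid receptor transcripts exceeded mineralocorticoid receptor transcripts per length in all 6 libraries.

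FKBP5 (chromosome 17, 28399094 to 28517527, minus strand) encodes the HSP90-bound immunophilin FKBP51, the feedback inhibitor of the receptor. Its level was 173, 218 and 245 CPM in RD and 182, 150 and 122 CPM in HFD. HFD replicate 1 lay above RD replicate 1, and the other HFD libraries lay below all RD libraries. The log2 change of -0.49 ± 0.15 missed the threshold (edgeR adjusted p = 0.0694), although its own 95% interval, from -0.82 to -0.15, did not include 0. FKBP5 was called lower by DESeq2 (adjusted p = 0.00708) and by edgeR without RD replicate 1 (0.0234) or HFD replicate 1 (0.0444), and was not called in the other settings, with adjusted p up to 0.23 without HFD replicate 3.

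TSC22D3 (chromosome X, 140539528 to 140600659, minus strand) encodes the leucine zipper protein GILZ, an anti-inflammatory effector of glucocorticoids. It stood at 61.8, 80.3 and 77.7 CPM in RD and at 81.6, 63.0 and 58.3 CPM in HFD. HFD replicate 1 was the highest library and HFD replicate 3 the lowest, so the RD values fell inside the HFD range. The log2 change was -0.11 ± 0.14, with a 95% interval from -0.42 to 0.19 (edgeR adjusted p = 0.647). It was -0.076 without RD replicate 3 (0.804).

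ZBTB16 (chromosome 9, 48654297 to 48836222, minus strand) encodes the zinc finger transcription factor PLZF, a gene that glucocorticoids induce in many tissues. It was at 192, 258 and 166 CPM in RD and at 156, 142 and 120.2 CPM in HFD. All HFD libraries were below all RD libraries, with a gap between HFD replicate 1 and RD replicate 3 that was small beside the spread within RD. ZBTB16 fell to 0.678 of its RD level, a log2 change of -0.56 ± 0.15 (edgeR adjusted p = 0.0426). Without RD replicate 3 the log2 change was -0.70 (adjusted p = 0.00614), and without RD replicate 2, the highest library, it was -0.37 and not called (0.087). The call was also lost without HFD replicate 1 (0.0638), 2 (0.128) or 3 (0.174), by limma-voom (0.052) and with library size only (0.0647).

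SGK1 (chromosome 10, 21882184 to 21999903, plus strand) encodes a serine/threonine kinase that both corticosteroid receptors and other stimuli such as serum induce, and that raises sodium transport by restraining NEDD4L. Its level was 35.3, 34.8 and 25.1 CPM in RD and 52.8, 42.5 and 46.2 CPM in HFD. All HFD libraries were above all RD libraries. SGK1 rose 1.49-fold, a log2 change of 0.57 ± 0.14 (edgeR adjusted p = 0.0298). It was called in 12 of 15 other settings, and not without HFD replicate 1 (0.103), 2 (0.0632) or 3 (0.105), where the log2 change lay between 0.48 and 0.64. Without RD replicate 3, its lowest library, the log2 change was 0.42 (0.0245).

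SGK1 and FKBP5, both glucocorticoid-induced, had log2 changes of opposite sign. The count of SGK1 relative to that of FKBP5 in the same library was 0.204, 0.160 and 0.102 in RD and 0.291, 0.283 and 0.379 in HFD. Every HFD ratio was above every RD ratio. This pair was chosen after its values were seen, so the ratio is given without a test.

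**Figure D2:**
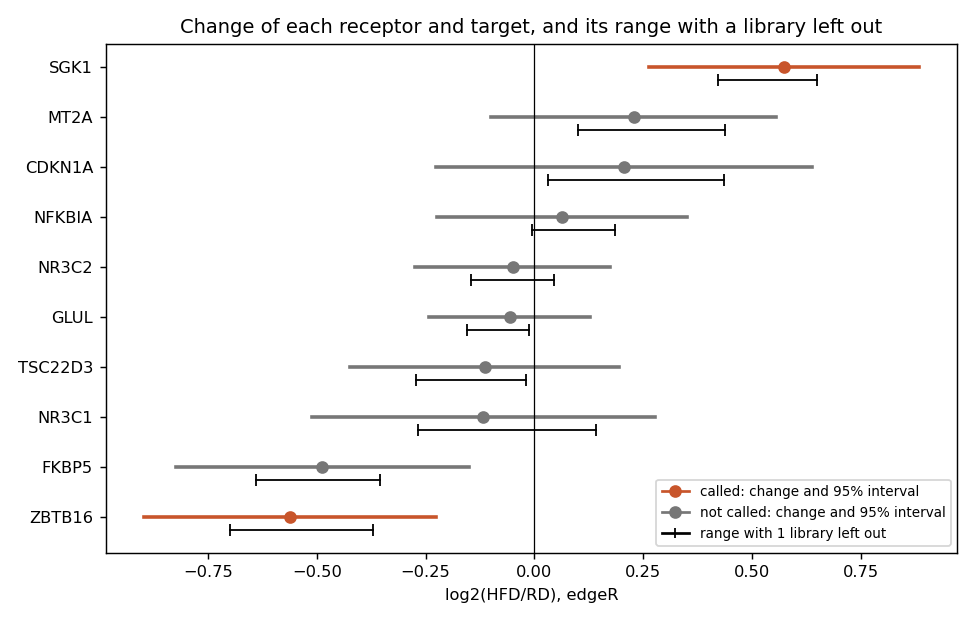
Points and thick lines give the log2(HFD/RD) change of each gene by edgeR with its 95% interval (orange where called), and black lines the range of the change with 1 library left out at a time. SGK1 stays between 0.42 and 0.65 and ZBTB16 between -0.70 and -0.37, while the range of NR3C1 spans 0.

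MT2A encodes a metallothionein, a small cysteine-rich protein that binds zinc and copper and is induced by metals and by glucocorticoids. No mouse gene of that symbol is in GENCODE M21, so the row is reported under its deposited name, with no position and no level per length. It was at 32.9, 29.9 and 46.5 CPM in RD and at 44.0, 41.7 and 42.6 CPM in HFD. The HFD libraries lay close together (SD 2.69% of the mean, against 24.2% in RD), above RD replicates 1 and 2 and below RD replicate 3. The log2 change was 0.23 ± 0.15, with a 95% interval from -0.10 to 0.56 (edgeR adjusted p = 0.362). Without RD replicate 3 it was 0.44 and called (0.0099). MT2A may share reads with other metallothionein rows where their sequences are alike. The other metallothionein rows were MT1H, called higher (28.3 ± 2.48 to 42.0 ± 6.89 CPM, log2 change 0.57 ± 0.13, edgeR adjusted p = 0.0219), and MT3, not called (0.12 ± 0.23). Leaving out RD replicate 2 or either of HFD replicates 1 and 2 ended the call of MT1H (up to 0.0774). MT1H is a deposited name with the same limit as MT2A.

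GLUL (chromosome 1, 153899944 to 153909723, plus strand) encodes glutamine synthetase, a classical glucocorticoid-induced enzyme and a glial marker. It stood at 306, 302 and 248 CPM in RD and at 278, 275 and 269 CPM in HFD. The 3 HFD libraries lay between RD replicate 3 and the other RD libraries. Of the 10 genes it had the narrowest 95% interval, from -0.24 to 0.13 on the log2 scale (-0.06 ± 0.08, edgeR adjusted p = 0.707). The log2 change was -0.15 without RD replicate 3, its lowest library, and still not called (0.0957).

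CDKN1A (chromosome 17, 29090976 to 29100727, plus strand) encodes the cell cycle inhibitor p21. It was at 8.32, 10.4 and 14.3 CPM in RD and at 13.9, 11.8 and 12.4 CPM in HFD, and RD spanned the whole HFD range. CDKN1A was the lowest of the 10 genes in counts. Its 95% interval, the widest of the 10, ran from -0.23 to 0.64 (0.21 ± 0.19, edgeR adjusted p = 0.548). Without RD replicate 3, its highest library, the log2 change was 0.44 and still not called (0.13).

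NFKBIA (chromosome 12, 55489410 to 55492647, minus strand) encodes the inhibitor IkappaB alpha, which holds NF-kappaB in the cytoplasm. It was at 46.7, 56.6 and 45.3 CPM in RD and at 56.1, 56.4 and 42.7 CPM in HFD. High and low values occurred in both groups, and the log2 change was 0.06 ± 0.13, with a 95% interval from -0.22 to 0.35 (edgeR adjusted p = 0.798). It was -0.0032 without RD replicate 3 (0.991).

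Inside the groups the genes did not follow 1 common order in RD, where replicate 3 was the highest library for 4 genes and the lowest for 5. In HFD, replicate 1 was the highest library for 9 of the 10 genes, NFKBIA being the exception, and replicate 3 was the lowest for 7. These orders describe libraries and carry no test.

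Levels were compared between genes as CPM per kilobase of annotated exon (RPKM, GENCODE M21, union of exons), which was possible for 9 genes. GLUL was the most abundant, at 85.8 ± 9.77 RPKM in RD and 82.5 ± 1.502 RPKM in HFD. ZBTB16 (38.9 ± 8.94), NFKBIA (30.8 ± 3.84), NR3C1 (28.8 ± 8.44), FKBP5 (22.4 ± 3.81), NR3C2 (21.0 ± 2.74) and TSC22D3 (16.9 ± 2.30 RPKM) followed in RD, and each neighbouring pair in that row overlapped. SGK1 (6.47 ± 1.18 RPKM) and CDKN1A (3.10 ± 0.85 RPKM) were lower, apart from their neighbours in both groups. In HFD the order after GLUL was NFKBIA (32.1), NR3C1 (26.6), ZBTB16 (26.4), NR3C2 (20.3), FKBP5 (16.0), TSC22D3 (15.6), SGK1 (9.62) and CDKN1A (3.58 RPKM). The order depends on the length used. With the longest transcript of each gene alone, the RD level of FKBP5 was 55.0 RPKM, second to GLUL. On that length NR3C1 (34.4) stood above NFKBIA (31.4), and TSC22D3 (25.5) above NR3C2 (23.0 RPKM).

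Of a further list of 32 glucocorticoid-induced genes, 7 rose, 1 fell and 24 were not called, against the 5.87% and 4.61% of all tested genes given above. This list and those below were chosen with earlier results of these data known, so their counts are not independent of the data and carry no test. The median log2 change of the list was 0.28, with 24 of 32 changes above 0. The 4 members with the smallest p were TXNIP, ERRFI1, ANGPTL4 and RASD1. TXNIP, a thioredoxin-binding brake on glucose uptake, rose from 329 ± 33.4 to 521 ± 13.4 CPM. ERRFI1, a feedback inhibitor of the EGF receptor, rose 2.05-fold, from 36.7 ± 5.57 to 75.2 ± 7.92 CPM. ANGPTL4, an inhibitor of lipoprotein lipase that fasting and PPAR ligands also induce, rose from 4.16 ± 1.34 to 13.7 ± 1.95 CPM, a log2 change of 1.71 ± 0.23 (edgeR adjusted p = 0.00304). RASD1, a RAS-like GTPase that dexamethasone induces, rose from 39.2 ± 8.23 to 127 ± 57.4 CPM, a log2 change of 1.70 ± 0.29 (edgeR adjusted p = 0.0075). These 4 were called in all 15 other settings.

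The other calls of that list, named after their values were seen, were TIPARP, the clock gene PER1, CEBPB and, on the lower side, LCN2. PER1 was at 252, 179 and 202 CPM in RD and at 448, 284 and 363 CPM in HFD, a log2 change of 0.79 ± 0.16 (edgeR adjusted p = 0.0161). CEBPB, a transcription factor of the acute phase, rose 1.85-fold, and LCN2, which encodes lipocalin 2, fell to 0.672 of its RD level. PER1 was not called without HFD replicate 1 (0.051) or 3 (0.0701), TIPARP not without HFD replicate 2 or 3 (up to 0.0525), CEBPB not when RD replicate 2 or HFD replicate 1 or 3 was left out (up to 0.118), and LCN2 not without HFD replicate 3 (0.0742). Without HFD replicate 3 the list held 4 rises and no fall, and without RD replicate 3 it held 7 rises and 3 falls. Among members not called, KLF9 had a log2 change of 0.03 ± 0.11, DUSP1 of 0.88 ± 0.33 and KLF15 of -0.62 ± 0.26. FOS, an immediate early gene that marks recent stimulation, stood at 364, 86.5 and 132 CPM in RD and at 498, 196 and 330 CPM in HFD, without a call (edgeR adjusted p = 0.309). RASD1, PER1, CEBPB, SGK1 and FOS all had their highest value of each group in replicate 1, and the part of recent stimulation in these rises was not tested.

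**Figure D3:**
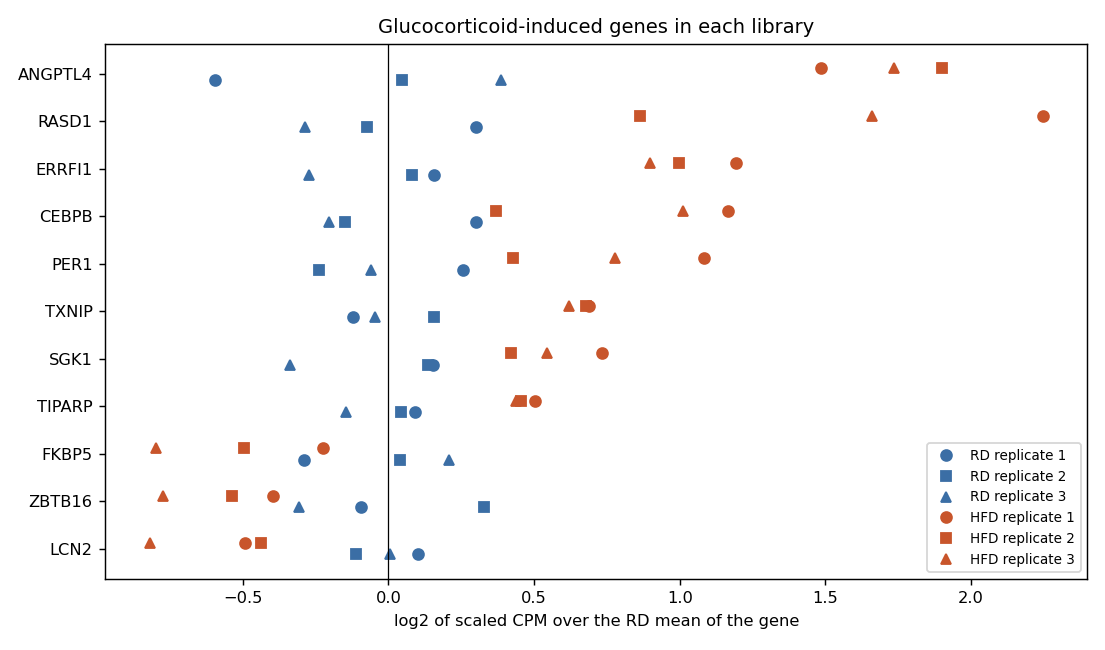
For FKBP5, ZBTB16, SGK1 and the 8 called genes of the wider list, each symbol is 1 library, placed at the log2 of its scaled CPM over the RD mean of that gene. The HFD libraries lie to the right of all RD libraries for SGK1 and the 7 rises and to the left for ZBTB16 and LCN2, while FKBP5 overlaps.

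Of 16 genes of the receptor's chaperone complex 10 fell, none rose and 6 were not called, against 4.61% of all tested genes called lower. The median log2 change was -0.61, and this list too was chosen with earlier results of these data known. Many of these 16 genes, though not all, load, hold or mature the ligand-binding receptor. The 4 with the smallest p were HSP90AB1, HSP90AA1, HSPA8 and AHSA1, and AHSA1, the activator of the HSP90 ATPase, fell from 86.6 ± 5.49 to 53.3 ± 2.09 CPM. FKBP4, the immunophilin FKBP52 that competes with FKBP51 for HSP90 and favours nuclear transfer of the receptor, is named after its values were seen. It stood at 182, 164 and 218 CPM in RD and at 118, 105 and 108 CPM in HFD, a log2 change of -0.77 ± 0.10 (edgeR adjusted p = 0.00266), with no overlap. PTGES3, the late-acting co-chaperone p23, fell from 153 ± 19.3 to 100.2 ± 7.30 CPM, and STIP1, which hands clients from HSP70 to HSP90, from 191 ± 39.9 to 99.7 ± 9.84 CPM, both also named after their values were seen. PPID (-0.08 ± 0.10) and PPP5C (0.07 ± 0.08), co-chaperones of the same class as FKBP4, were not called. The count of falls was 8 to 10 with any library left out and 10 by DESeq2.

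Among 10 genes that glucocorticoids restrain in corticotrophs, 2 rose, none fell and 8 were not called, against 5.87% of all tested genes called higher and 4.61% lower, with a median log2 change of 0.54. CRHR1, the receptor for corticotropin-releasing hormone, rose from 34.9 ± 1.11 to 44.7 ± 3.35 CPM (0.36 ± 0.09, edgeR adjusted p = 0.0314), and NR4A3, an immediate early nuclear receptor, rose from 30.1 ± 15.04 to 79.4 ± 37.1 CPM (1.40 ± 0.37, edgeR adjusted p = 0.0394). Over the 6 fits that each omit a library, CRHR1 was called 1 time and NR4A3 2 times (adjusted p up to 0.141), NR4A3 was not called by DESeq2 (0.0716), and the list held no rise when RD replicate 2 or HFD replicate 1 or 3 was left out. PCSK1, the convertase that cuts POMC to corticotropin, had a log2 change of -0.34 ± 0.13 (edgeR adjusted p = 0.126) and NR4A2 of 0.99 ± 0.38 (0.128). POMC itself was not called (0.58 ± 0.29, edgeR adjusted p = 0.233).

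**Figure D4:**
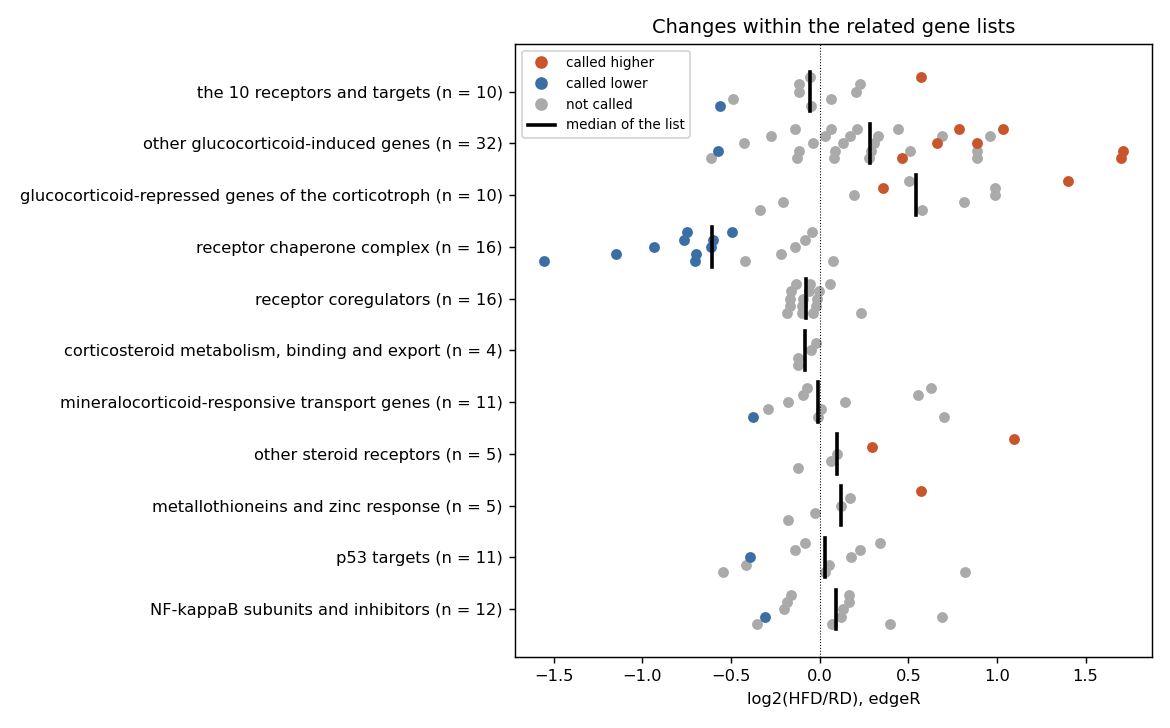
Each point is 1 tested gene placed at its log2(HFD/RD) change, grouped by list and coloured where called, with a black bar at the median of the list. The chaperone complex lies to the left (median -0.61, 10 of 16 called lower), the wider list of induced genes to the right (median 0.28, 7 of 32 called higher), and the coregulators near 0.

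Among 16 receptor coregulators 0 were called by edgeR, where 10.5% of all tested genes were, with 1 at an unadjusted p under 0.05 and changes from -0.18 to 0.23. DESeq2 and limma-voom called 0 as well, and 1 was called with library size as the only scaling. The corepressor component HDAC3, which had the smallest p, had 62.1 ± 2.14 CPM in RD, against 72.9 ± 2.66 CPM in HFD (0.23 ± 0.07, edgeR adjusted p = 0.0775). Of 6 genes of corticosteroid metabolism, binding and export in the deposited counts, 4 passed the filter. Among these 4, 0 were called by edgeR or in any other setting, and none had an unadjusted p under 0.05. HSD11B1, which regenerates active glucocorticoid, had a mean of 15.4 ± 1.53 CPM in RD, against 14.2 ± 1.85 CPM in HFD. HSD11B2, which inactivates it and so shields the mineralocorticoid receptor, stood at 4.63 ± 0.89 and 4.48 ± 0.74 CPM. H6PD, which supplies the cofactor of HSD11B1, stood at 79.7 ± 1.97 and 78.5 ± 11.9 CPM.

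Of 11 tested transport genes downstream of the mineralocorticoid receptor and SGK1, 1 fell and 10 were not called, near the 4.61% of all tested genes called lower, with a median log2 change of -0.01. STK39, the kinase SPAK that activates sodium chloride cotransporters, fell from 87.8 ± 2.79 to 67.7 ± 4.29 CPM (-0.38 ± 0.08, edgeR adjusted p = 0.0156), and was not called without HFD replicate 1 (0.0593) or 2 (0.0795). SCNN1B, a subunit of the epithelial sodium channel, was at 47.4, 44.5 and 25.9 CPM in RD and at 63.8, 55.9 and 53.1 CPM in HFD, without a call (edgeR adjusted p = 0.0956). NEDD4L, the ubiquitin ligase that SGK1 inhibits, had a log2 change of -0.29 ± 0.10 (0.101).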

How the data were processed

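The data are read counts per gene from 6 poly(A)-selected pituitary libraries, 3 RD and 3 HFD. The deposited table holds raw whole-number counts. The build was mm10, per the submitters' processing notes. Which aligner, counter and gene models the authors used is not given in the sources used here. Rows carry upper-case symbols, 43 of them on more than 1 row; those rows were tested but kept out of the lists. Among counts from 1 to 10, 64.0% to 67.0% were even, so both mates of a pair may have been counted and no counting interval is given. Whether strand was used is not given, so overlapping genes may share reads. At these totals 3 counts equal 0.166 to 0.211 CPM. Replicates differed beyond sampling noise (chi-square per degree of freedom 4.49 to 21.1), so each library counted once.

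Tests used edgeR 4.0.16 under R 4.3.3, with TMM factors, filterByExpr (minimum count 10, minimum total 15) and glmQLFit on a design of intercept plus diet. Two-sided glmQLFTest p-values were adjusted by Benjamini-Hochberg over 13873 rows, with a threshold of 0.05. SE values are absolute log2 changes over the root of the F statistic. The 95% intervals are per gene and not adjusted. Fits were tested on simulated data. Alternatives were other scalings and filters, DESeq2 1.42.0, limma-voom (limma 3.58.1), halved counts, a replicate block, other thresholds and each library left out. Positions and exon lengths are from GENCODE M21 (mm10), promoter windows from RefSeq (GRCm38.p6).

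One result is not reported here. All genes of the set are described, and from each other list up to 4 with the smallest p. Other named genes fall outside that rule, and only some are marked in the text as chosen later. KLF9, DUSP1, KLF15, FOS, PPID and PPP5C are among those without a mark. The members and lists were chosen with earlier results of these data known. Marker lists of 12 cell types were read the same way. Of 64 tested markers 11 were called higher and 8 lower, where 5.87% and 4.61% of all tested genes were. Among them 3 of 5 somatotroph markers were lower and 4 of 5 thyrotroph markers higher. By edgeR 0 of the pituicyte, endothelial, myeloid and erythroid markers were called (unadjusted p under 0.05 for 1, 2, 0 and 0 of them).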

Additional observations from a re-analysis of the deposited data

How the results depend on the processing

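Over all tested genes, the number called higher was 814 and changed to 473 with the replicate number as a block, to 1276 at a threshold of 0.1, to 228 at 0.01 and to between 243 and 813 with 1 library left out. The number called lower was 639 and changed to 425 with library size only, to 335 with the block, to 1067 at 0.1, to 184 at 0.01 and to between 188 and 710 with 1 library left out; the total was lowest without HFD replicate 3 (431) and HFD replicate 2 (490). Of the 10 receptors and targets, those called higher numbered 0 at a threshold of 0.01 and 0 to 2 with a library left out. Those called lower numbered 0 with library size only, by limma-voom and at 0.01, 2 by DESeq2 and at 0.1, and 0 to 2 with a library left out. Signs turned only for genes that were not called. NR3C1 ran from -0.27 to 0.14 on the log2 scale with a library left out, NR3C2 from -0.15 to 0.044 and NFKBIA from -0.0049 to 0.18. With library size only, which moved the median of all genes to 0.065, NR3C2 was at 0.016 and GLUL at 0.0082. Over all genes, same-numbered RD and HFD libraries did not deviate together (correlations -0.13, 0.00 and -0.10). Not every library correlated best with its own number, and the main fit did not pair them. This check runs over all genes, so it cannot show whether some genes share an order of replicates. With the replicate block the edgeR adjusted p of NR4A3 was 0.00131, against 0.0394 without it, and that of PER1 was 0.00297, against 0.0161. With the replicate block SGK1 (adjusted p = 0.0374) and ZBTB16 (0.0282) were called, and FKBP5 (0.138), CRHR1 (0.0734), STK39 (0.052) and IKBKB (0.0994) were not. The block left 9 falls in the chaperone list and gave 4 rises among the genes restrained in corticotrophs, and 5.82% of all tested genes were called. Of 748 counts for the other lists under the alternatives, 648 were within 1.5 times the reported count and 100 were not. Where leaving out 1 library left 2 in its group, the spread was pooled over both groups. The cause of these changes was not tested. With all counts halved and rounded up, SGK1 and ZBTB16 were called and the other 8 were not. Halving adds no sampling noise, so it cannot show what a lower depth would give.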

Other observations

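Among other nuclear receptors, ESRRG, the estrogen-related receptor gamma, rose 2.14-fold, from an RD mean of 18.8 ± 2.06 CPM to an HFD mean of 40.1 ± 3.72 CPM (log2 1.10 ± 0.12, edgeR adjusted p = 0.00122), and was called in all 15 other settings. PGR (-0.12 ± 0.12), ESR1 (0.06 ± 0.07) and ESRRA (0.10 ± 0.13) were not called. Whether the change of ESRRG differs from that of NR3C1 was not tested.

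Beside CDKN1A, 1 of 11 tested p53 targets fell and none rose, where 4.61% of all tested genes were called lower and 5.87% higher. It was CCNG1, which encodes cyclin G1, from 126, 130 and 121 CPM in RD to 97.4, 94.7 and 94.97 CPM in HFD (-0.39 ± 0.06, edgeR adjusted p = 0.00644), called in all 15 other settings. Beside NFKBIA, 1 of 12 NF-kappaB subunits, inhibitors and kinases fell, against the same 4.61% of all tested genes. The 1 fall was the kinase gene IKBKB (-0.31 ± 0.08, edgeR adjusted p = 0.0392). It was called in 7 of 15 other settings, and the highest adjusted p was 0.156, without HFD replicate 3.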
